A study of Homo sapiens with 12 samples.

Results

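AP-1 is a family of transcription factors that bind DNA as pairs of basic leucine zipper (bZIP) proteins, and the transcripts of 10 of its subunits were followed here: JUN, JUNB, JUND, FOS, FOSB, FOSL1, FOSL2, BATF, BATF3 and ATF3. The members are all probe sets to which the array annotation gives 1 of these symbols, which makes 22 of the 54613 non-control probe sets. JUN and JUND have 4 probe sets each, FOSL2 has 5, ATF3 has 3 and the other genes have 1 each. The samples are 12 arrays of L1236 and L428 cells, which are established B-cell-derived lines of classical Hodgkin lymphoma. In each line, 3 arrays measured cells given 1 µM 5-Aza-dC (decitabine, a cytidine analogue that traps DNA methyltransferases) for 24 h and then kept 72 h without it, and 3 arrays measured untreated cells. The labels name no genetic change in either line, both were grown in the same serum-supplemented medium, and each line stems from 1 patient's tumour.

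JUN proteins can pair with one another or with FOS proteins, while FOS proteins need a JUN partner to bind DNA. BATF and BATF3 lack a transactivation domain of their own, pair with JUN proteins and bind composite DNA elements beside IRF4 or IRF8 in lymphocytes. ATF3 is a stress-inducible member of the wider family. In Hodgkin lymphoma cells AP-1 with JUN and JUNB is known to be active without a stimulus, and BATF3 is known to be highly expressed.

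Values are log2 signals as the authors deposited them, made by robust multichip averaging (RMA), and a change is a log2 difference of group means ± SE from limma. A probe set was called at a Benjamini-Hochberg adjusted p under 0.05 over all 54613 probe sets. Arrays of one group correlated at 0.982 to 0.997 across probe sets. Each group holds arrays numbered 1, 2 and 3 in their titles, and the treated arrays numbered 1 stood apart: the SD of their deviations from the group mean was 0.350 in L1236 and 0.385 in L428, against 0.161 to 0.313 in the other 10 arrays. The source name of untreated L1236 replicate 1 describes treated L428 cells, against its description, by which it was grouped. It correlated best, at 0.994, with untreated L1236 replicate 3. The labels speak of triplicates and not of separate cultures, so p-values measure the spread between these samples, which may be technical. Of 8 Hodgkin cell markers, 7 lay above a level of 4 in treated L1236, 6 in untreated L1236, 8 in treated L428 and 7 in untreated L428, with TRAF1 at 2.07 and 2.10 in treated and untreated L1236. None of 8 myeloid markers lay above 4 except ITGAM in treated L1236, the 3 of 8 stromal and epithelial markers above 4 there were COL1A1, EPCAM and KRT8, and the 2 of 8 T-cell and NK-cell markers were CD3D and CD8A. Of these, COL1A1, KRT8 and CD3D lay above 4 in every group, and EPCAM and CD8A only in treated L1236. NKG7 lay above 4 only in treated L428, at 5.07 against 3.12 in untreated L428. The mean level over a whole list was higher on treated than on untreated L1236 arrays for 4 of these lists: 2.75 to 2.85 against 2.60 to 2.63 for myeloid cells, 3.38 to 3.53 against 2.63 to 2.72 for T and NK cells, 4.79 to 5.06 against 3.68 to 3.82 for stroma and epithelium, and 10.20 to 11.01 against 9.0 to 9.16 for Hodgkin markers. The same lists had, in treated against untreated L428, 2.59 to 2.62 against 2.55 to 2.66, 2.80 to 3.10 against 2.63 to 2.86, 4.13 to 4.27 against 3.85 to 4.02, and 11.38 to 11.74 against 10.76 to 11.31. Of 7 B-cell markers, 5 lay above 4 in L1236 and 3 in L428, with and without the drug. The 3 in L428 were CD79B, PAX5 and CD37 with the drug, and CD79B, PAX5 and CD22 without it. This list averaged 7.28 to 7.48 on treated and 7.16 to 7.41 on untreated L1236 arrays. In L428 it averaged 3.85 to 4.0 on treated and 3.44 to 3.80 on untreated arrays. The part of these markers in the AP-1 results was not tested, and in bulk RNA a change in the share of cells and a change in RNA per cell cannot be told apart.

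In L1236, the FOS genes, JUNB and ATF3 were higher after 5-Aza-dC, while JUN, JUND, BATF and BATF3 were not called. Of the 22 probe sets, 9 rose and 0 fell, from 6 of the 10 genes, against 9.02% of all probe sets called, 4.58% higher and 4.44% lower. The median change of the 22 was 1.04, against -0.03 over all probe sets. Of the 22, 11 had all treated arrays above all untreated arrays, against 10.3% of all probe sets, and 1 had them all below, against 48%. This last share is made largely of small shifts: of the 26240 probe sets involved, 17482 moved by less than 0.1, and 19571 had a mean below 4. Both shares depend on the level. Among probe sets with a mean of 4 or more, 19.5% had all treated arrays above and 29.1% had them all below. The number of probe sets called was 2 without untreated L1236 replicate 2 or 3 or treated L1236 replicate 2 or 3, and 4 without untreated L1236 replicate 1. With only the arrays of L1236 in the fit it was 1, that of FOSB.

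**Figure D1:**
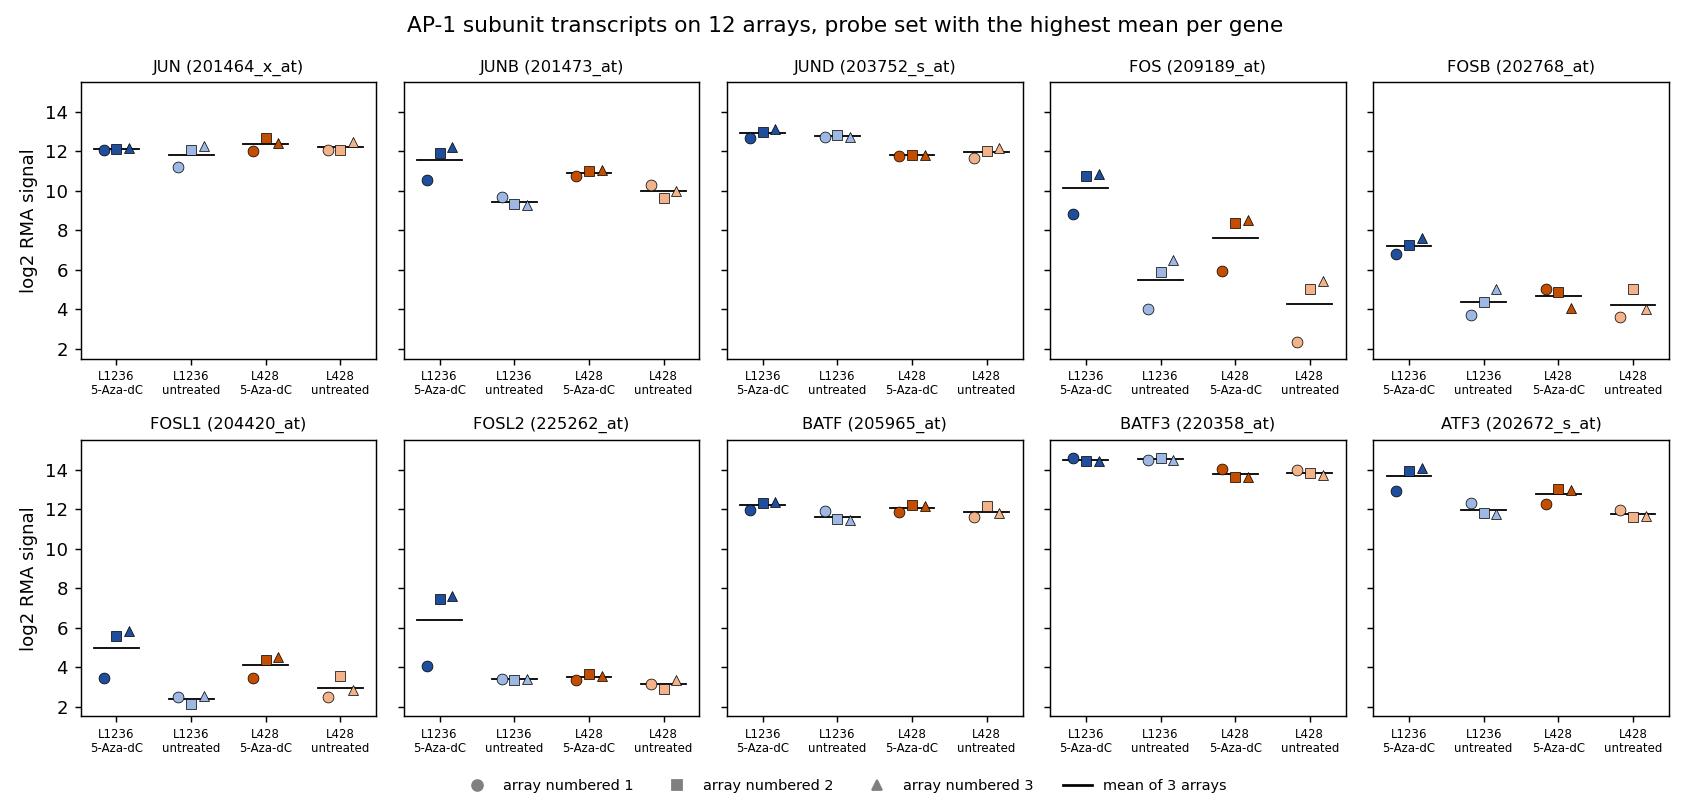
Log2 RMA signal of the 10 AP-1 genes on each of the 12 arrays, with the probe set of the highest mean for each gene. Points are single arrays, marked by the number in their titles, and bars are means of 3 arrays. The mean of FOS was 10.14 in treated L1236, against 5.48 without the drug, and 7.63 in treated L428, against 4.28, while BATF3 lay between 13.61 and 14.59 on every array.

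FOS, the founding FOS protein and an immediate-early gene, had log2 signals of 8.81, 10.75 and 10.85 in treated L1236, against 4.02, 5.91 and 6.52 in untreated L1236. In L428 it had 5.95, 8.39 and 8.54 in treated cells, against 2.35, 5.04 and 5.45 in untreated cells. Treated arrays lay above untreated arrays in both lines, and array 1 was the lowest in all 4 groups, as it was for 3.73% of all probe sets. The difference was 4.65 ± 1.10 in L1236 (limma adjusted p = 0.0329) and 3.35 ± 1.10 in L428 (adjusted p = 0.167). The groups ranked treated L1236, treated L428, untreated L1236 and untreated L428. Treated L1236 did not overlap treated L428, but treated L428 overlapped untreated L1236 and the untreated lines overlapped each other.

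Between arrays of the same number, FOS differed by 4.79, 4.84 and 4.33 in L1236 and by 3.60, 3.34 and 3.09 in L428. These differences spread over less than the levels themselves did. In L428, same-numbered treated and untreated arrays deviated together from their group means (correlations of 0.260, 0.154 and 0.167 across probe sets), and with the number as a block FOS was called there (limma adjusted p = 0.00559), the 1 of 22 probe sets to be so, against 2.2% of all (1.25% higher and 0.956% lower). Without the 4 arrays numbered 1, FOS rose in both lines, by 4.59 in L1236 (adjusted p = 0.000317) and 3.22 in L428 (0.00138). The L1236 call was lost without any 1 of the 3 untreated L1236 arrays (0.0959, 0.0811 and 0.0613 for replicates 1, 2 and 3), without treated L1236 replicate 2 or 3 (0.123 each) and without untreated L428 replicate 2 (0.0512).

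**Figure D2:**
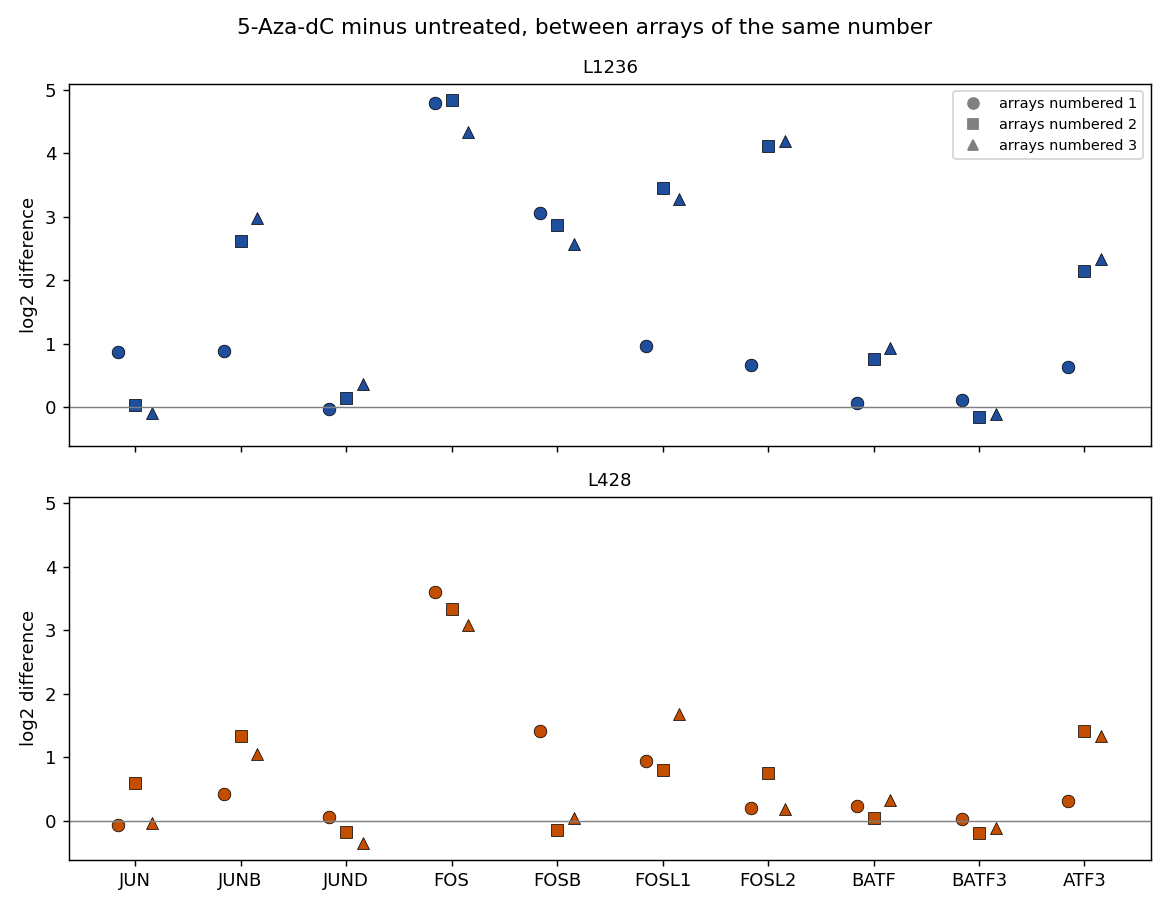
Log2 difference, 5-Aza-dC minus untreated, between arrays of the same number in L1236 (top) and L428 (bottom), for the highest-mean probe set of each gene. FOS lies at 4.33 to 4.84 in L1236 and 3.09 to 3.60 in L428, and the arrays numbered 1 give the smallest L1236 difference for JUNB (0.89), FOSL1 (0.97), FOSL2 (0.67) and ATF3 (0.64).

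FOSB, a FOS paralogue also induced as an immediate-early gene, had 6.79, 7.27 and 7.60 in treated L1236, against 3.73, 4.40 and 5.04 in untreated L1236. Its values in L428 were 5.01, 4.89 and 4.07 with the drug, against 3.60, 5.03 and 4.03 without it. The groups were apart in L1236 and overlapped in L428. FOSB rose by 2.83 ± 0.46 in L1236 (adjusted p = 0.00645) and differed by 0.43 ± 0.46 in L428 (0.608). The L1236 call held in every alternative that was run, with adjusted p-values of 0.000284 to 0.0324. The difference between the 2 responses was 2.40 ± 0.65, with an adjusted p of 0.112.

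FOSL1 encodes FRA1, a FOS protein without the transactivation domain of FOS. It had 3.46, 5.58 and 5.82 in treated L1236, against 2.49, 2.13 and 2.55 in untreated L1236. Treated L428 cells had 3.45, 4.35 and 4.52, against 2.49, 3.54 and 2.83 in untreated L428. Treated arrays lay above untreated ones in L1236, where treated replicate 1 was lowest, and the groups overlapped in L428. The change was 2.57 ± 0.60 in L1236 (adjusted p = 0.0310) and 1.15 ± 0.60 in L428 (0.408). The L1236 call was lost without any of the 3 untreated L1236 arrays, treated L1236 replicates 2 or 3, or untreated L428 replicate 3, with adjusted p-values of 0.0508 to 0.122. Of the untreated levels, all but that of L428 replicate 2 lay below the array medians of 3.01 to 3.08, and such low levels leave the size of such changes uncertain.

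FOSL2 encodes FRA2, its close relative, and is read by 5 probe sets. The brightest, 225262_at, had 4.04, 7.47 and 7.58 in treated L1236, against 3.38, 3.35 and 3.38 in untreated L1236. In L428 it had 3.34, 3.67 and 3.55 with the drug, against 3.14, 2.91 and 3.36 without it. In L1236 it was raised on treated arrays 2 and 3 and much less on array 1. It rose by 2.99 ± 0.79 (adjusted p = 0.0497) and 218880_at by 3.02 ± 0.72 (0.0336), while 205409_at, 218881_s_at and 228188_at had differences of 1.10, 0.99 and 1.22 and adjusted p-values of 0.136 to 0.149. The untreated L1236 means of 218880_at, 205409_at, 218881_s_at and 228188_at were 2.53, 3.0, 2.22 and 2.65. These lay below the array medians of 3.01 to 3.08, which leaves the size of their changes uncertain. Without the 4 arrays numbered 1, all 5 rose, by 1.49 to 4.15. In L428 the 5 differences ran from -0.02 to 0.57 and none was called, also without those arrays. The call of 225262_at was lost without any 1 array other than treated L1236 replicate 1 (adjusted p-values of 0.0576 to 0.179) and after quantile (0.05) or cyclic loess normalization (0.0549), and that of 218880_at without any untreated L1236 array, treated L1236 replicates 2 or 3, untreated L428 replicates 2 or 3 or treated L428 replicate 3 (0.0528 to 0.131).

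The stretches before the start sites of FOS, FOSB and FOSL2, which rose in L1236, are shown for a short CREB and ATF-type element that each holds close to its start. Each is the 250 bases before the start in RefSeq (GRCh38.p14), 5′ to 3′, with the letters TGACGT in capitals. Windows were found for 8 of the 10 genes, with 2 for ATF3. FOSL1 and BATF3 had no entry.
FOS chr14:75278578-75278827 (+ strand): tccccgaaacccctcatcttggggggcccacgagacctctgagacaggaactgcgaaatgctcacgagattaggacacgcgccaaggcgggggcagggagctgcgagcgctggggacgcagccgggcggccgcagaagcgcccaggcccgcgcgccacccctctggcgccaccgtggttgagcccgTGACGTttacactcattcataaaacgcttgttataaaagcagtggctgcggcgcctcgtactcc
FOSB chr19:45467746-45467995 (+ strand): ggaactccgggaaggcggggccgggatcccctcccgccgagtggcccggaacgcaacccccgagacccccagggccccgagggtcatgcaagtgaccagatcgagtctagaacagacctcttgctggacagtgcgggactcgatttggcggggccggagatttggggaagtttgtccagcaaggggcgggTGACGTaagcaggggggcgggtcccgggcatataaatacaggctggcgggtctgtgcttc
FOSL2 chr2:28392608-28392857 (+ strand): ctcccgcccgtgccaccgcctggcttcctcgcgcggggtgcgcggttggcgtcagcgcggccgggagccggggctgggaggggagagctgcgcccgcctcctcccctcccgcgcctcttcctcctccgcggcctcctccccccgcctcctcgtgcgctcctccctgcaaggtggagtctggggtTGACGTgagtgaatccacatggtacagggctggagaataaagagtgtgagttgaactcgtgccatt
The element TGACGT, sought on both strands, starts 64 bases before the start of FOS, 60 before that of FOSB and 66 before that of FOSL2. It was found in 4 of the 9 windows, the other being that of JUND, against 7.1% of the 35116 windows of the table. Its full palindrome TGACGTCA, which contains it, was present in the JUND window only, against 1.65% of all windows. The classical AP-1 site TGANTCA was in 0 of the 9, against 6.57%. The motifs were chosen with these windows in view, and a match is a description of the letters. The windows of FOS, FOSB and FOSL2 hold 25, 19 and 24 CpG dinucleotides, the sites that DNA methyltransferases act on, against a median of 11 over all windows. The JUND window holds the most of the 9, with 40, JUNB has 27, JUN 14 and BATF 5, and the ATF3 windows have 4 and 0. Which start sites were in use in these cells was not tested, nor was any link between CpG content and response.

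JUNB, a JUN protein and a weaker activator than JUN on many promoters, had 10.57, 11.94 and 12.24 in treated L1236, against 9.68, 9.32 and 9.27 in untreated L1236. It had 10.74, 10.99 and 11.06 in treated L428, against 10.30, 9.65 and 9.99 in untreated L428. The groups did not overlap in either line. JUNB rose by 2.16 ± 0.38 in L1236 (adjusted p = 0.00994), a call kept without any single array, and differed by 0.94 ± 0.38 in L428 (0.264). In L428 the difference was called without treated L1236 replicate 1 (0.94, adjusted p = 0.0413), which changes only the shared spread, and without the 4 arrays numbered 1 (1.20, 0.00628).

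JUN, the strongest activator among the JUN proteins, had no probe set called in either line. Its brightest probe set is 201464_x_at, whose suffix marks probes that can match other transcripts. This probe set had 12.06, 12.10 and 12.19 in treated L1236, against 11.19, 12.05 and 12.27 in untreated L1236. Treated L428 arrays gave 12.01, 12.67 and 12.44, against 12.08, 12.07 and 12.47 in untreated L428. Treated and untreated arrays overlapped in both lines on this probe set. On 201465_s_at, all treated L428 arrays lay above all untreated L428 arrays. Over the 4 JUN probe sets the differences ran from -0.29 to 0.28 in L1236 (adjusted p-values of 0.490 to 0.739) and from 0.16 to 0.93 in L428 (0.243 to 0.733). Untreated L1236 replicate 1 was the lowest of its group on all 4. Of the 4, without the arrays numbered 1, 201466_s_at fell by 0.71 in L1236 (adjusted p = 0.0254) and 201465_s_at rose by 1.22 in L428 (0.0407).

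JUND, the JUN protein usually present in resting cells, had 12.70, 12.98 and 13.12 in treated L1236 on probe set 203752_s_at, against 12.72, 12.84 and 12.75 in untreated L1236. It had 11.76, 11.83 and 11.82 in treated L428, against 11.69, 12.02 and 12.17 in untreated L428. Every L1236 array lay above every L428 array, and within a line the groups overlapped. The response was 0.16 ± 0.13 in L1236 (adjusted p = 0.408) and -0.15 ± 0.13 in L428 (0.560). Of its other probe sets, 203751_x_at and 214326_x_at, whose suffix marks probes that can match other transcripts, had positive differences in L1236 and negative ones in L428. The last, 229117_s_at, lay between 2.01 and 2.46 on all arrays, at the lower end of the scale.

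BATF had 11.95, 12.29 and 12.37 in treated L1236, against 11.88, 11.52 and 11.43 in untreated L1236. In L428 the treated arrays had 11.84, 12.21 and 12.15, against 11.61, 12.17 and 11.82 in untreated L428. The L1236 groups did not overlap, by a margin set by the 2 arrays numbered 1. The difference was 0.59 ± 0.19 in L1236 (adjusted p = 0.0881) and 0.20 ± 0.19 in L428 (0.576). In L1236 it was called after subtraction of array medians (0.58, adjusted p = 0.0471), without treated L1236 replicate 1 (0.72, 0.0426), with array weights (0.77, 0.00128) and without the arrays numbered 1 (0.85, 0.00702).

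BATF3 had 14.59, 14.42 and 14.41 in treated L1236, against 14.47, 14.57 and 14.50 in untreated L1236. With the drug, L428 had 14.02, 13.61 and 13.64, against 13.99, 13.81 and 13.75 in untreated L428. It was high on every array, higher in L1236 than in L428, and overlapped between treatments in each line. The response was -0.05 ± 0.11 in L1236 (adjusted p = 0.797) and -0.09 ± 0.11 in L428 (0.654). These signals are close to the top of the scale, which ends at 16.62.

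ATF3 is read by 3 probe sets, and all 3 rose in L1236. The brightest, 202672_s_at, had 12.94, 13.94 and 14.10 in treated L1236, against 12.30, 11.79 and 11.77 in untreated L1236. L428 cells given the drug had 12.26, 13.02 and 12.96, against 11.94, 11.62 and 11.63 in untreated L428. The groups were apart in both lines, with treated replicate 1 the lowest treated array in each. The L1236 change was 1.71 ± 0.33 on this probe set (adjusted p = 0.0136), 2.12 ± 0.48 on 1554980_a_at (0.0287) and 2.33 ± 0.52 on 1554420_at (0.0261). In L428 the same probe sets differed by 1.02 ± 0.33 (0.157), 0.93 ± 0.48 (0.409) and 0.30 ± 0.52 (0.737).

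Each of the 3 ATF3 calls in L1236 was lost without untreated L1236 replicate 2 or 3 or treated L1236 replicate 2 or 3, and that of 1554420_at also without untreated L1236 replicate 1 (adjusted p-values of 0.0532 to 0.109). In L428, 202672_s_at was called without treated L428 replicate 1 (1.26, adjusted p = 0.0491) and, with 1554980_a_at, without the arrays numbered 1 (1.37 and 1.18, adjusted p-values of 0.000288 and 0.0285). The windows of JUN and of one ATF3 start share the letters TGACATCA, a variant of the AP-1 site, in capitals here.
JUN chr1:58784048-58784297 (- strand): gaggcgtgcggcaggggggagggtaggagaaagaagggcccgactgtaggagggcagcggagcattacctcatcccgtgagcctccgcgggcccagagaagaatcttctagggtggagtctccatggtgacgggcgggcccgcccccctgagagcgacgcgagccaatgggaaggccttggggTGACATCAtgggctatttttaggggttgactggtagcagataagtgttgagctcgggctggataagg
ATF3 chr1:212565157-212565406 (+ strand): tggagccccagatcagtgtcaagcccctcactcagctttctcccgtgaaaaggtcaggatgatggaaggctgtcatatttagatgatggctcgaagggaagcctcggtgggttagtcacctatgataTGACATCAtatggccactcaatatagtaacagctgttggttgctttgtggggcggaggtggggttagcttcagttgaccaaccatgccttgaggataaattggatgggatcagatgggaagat
TGACATCA starts 67 bases before the JUN start and 123 before this ATF3 start, and was in 2.37% of all windows. 

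In L428, limma called 0 of the 22 probe sets, with 4 at an unadjusted p under 0.05, against 3.02% of all probe sets called, 1.82% higher and 1.2% lower. The 4 were JUN 201465_s_at, JUNB, FOS and ATF3 202672_s_at. The median change was 0.29, against -0.02 over all probe sets, and 5 of the 22 had treated arrays all above untreated arrays and 0 all below, against 6.41% and 9.81% of all. Without the 4 arrays numbered 1, 6 probe sets of 5 genes rose and 1 fell, against 8.46% and 9.77% of all. Those that rose were of JUN, JUNB, FOS, FOSL1 and ATF3, and the one that fell was BATF3, by 0.15 (adjusted p = 0.0417). In L1236 the same setting had 13 probe sets of 7 genes that rose and 1 that fell, against 10.7% and 12.5% of all.

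**Figure D3:**
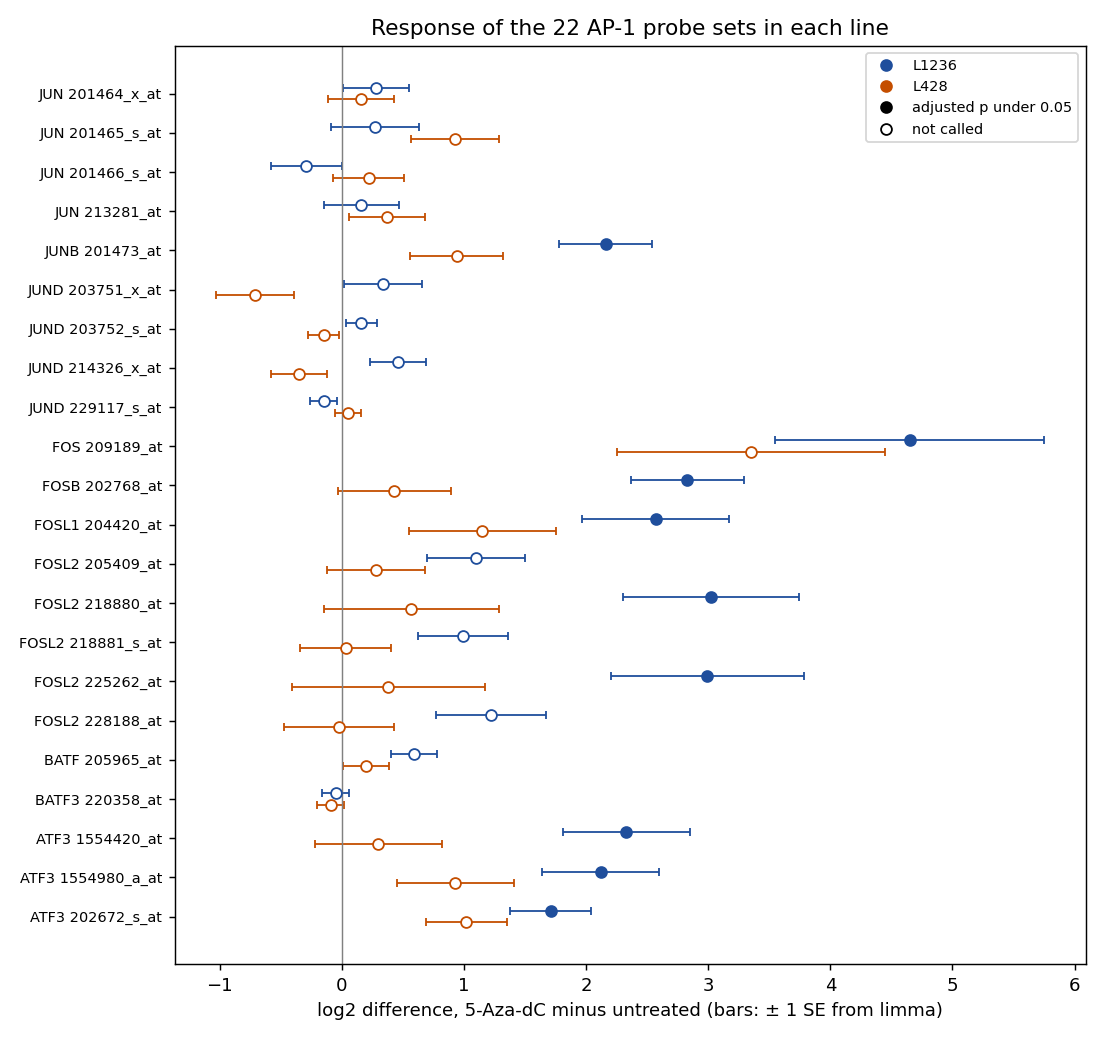
Log2 difference, 5-Aza-dC minus untreated, of the 22 probe sets in L1236 (blue) and L428 (orange), with bars of 1 SE from limma and filled points where the adjusted p was under 0.05. In L1236 the 9 filled points lie between 1.71 and 4.65, and in L428 none is filled.

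The difference between the responses, L1236 minus L428, was called for 0 of the 22 probe sets, with 6 at an unadjusted p under 0.05, against 2.57% of all probe sets called, 1.42% higher and 1.15% lower. So the calls in L1236 and their absence in L428 do not show that the lines differed. The difference was positive for 18 of the 22. Without the arrays numbered 1 it was called higher for 10 and lower for 1, against 6.95% and 7.36% of all, among them FOSL2 225262_at at 3.68 (adjusted p = 0.00105), JUNB at 1.60 (0.0106) and JUN 201466_s_at at -1.04 (0.0355). Without treated L1236 replicate 1 alone, 8 were called, and without any other single array 0. The share of all probe sets called in these settings was not computed, so the 8 cannot be set against it.

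Over both lines, the mean response was called higher for 7 of the 22 probe sets and lower for 0, against 12.2% of all called, 5.85% higher and 6.31% lower. They were those of JUNB at 1.55 ± 0.27 (adjusted p = 0.00839), FOS at 4.0 ± 0.78 (0.0131), FOSB at 1.63 ± 0.32 (0.0144), FOSL1 at 1.86 ± 0.42 (0.0240) and all 3 of ATF3, at 1.32 to 1.52 (0.00715 to 0.0496). The calls of JUNB, FOS, FOSB and ATF3 202672_s_at were kept without any single array. With the array number as a block, those of FOSL1 (0.0513) and of all 3 ATF3 probe sets (0.0550, 0.0946 and 0.0941) were lost and those of JUNB (0.05), FOS (0.000616) and FOSB (0.0235) remained. The number called was 4 without treated L1236 replicate 2, untreated L1236 replicate 2 or 3 or treated L428 replicate 2 or 3, and 13 without treated L1236 replicate 1, with no share of all probe sets computed beside these. FOSL1 was lost in those 5 settings and without treated L1236 replicate 3 or untreated L428 replicate 3 (0.0521 to 0.0655), ATF3 1554980_a_at in those 5 and without untreated L428 replicate 2 (0.0519 to 0.0619), and ATF3 1554420_at without any 1 array other than treated L1236 replicate 1 (0.0630 to 0.119). Without the arrays numbered 1, 13 were called higher and 1 lower, against 26.9% of all called, 12.2% higher and 14.7% lower. This mean uses the same arrays as the responses above.

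Before treatment the lines differed in JUND and BATF3. Untreated L1236 lay above untreated L428 by 0.81 ± 0.13 for JUND 203752_s_at (adjusted p = 0.00172) and by 0.67 ± 0.11 for BATF3 (0.00228), and both calls held in every alternative. These were 2 of 22 probe sets that were higher, and 0 were lower, against 21.1% of all called, 11.2% higher and 9.89% lower. Without treated L1236 replicate 3, 4 of the 22 were called. When the arrays numbered 1 were left out, 3 were higher and 1 was lower, against 26.8% of all called, 13.9% higher and 13% lower. All untreated L1236 arrays lay above all untreated L428 arrays for 4 of the 22, and below for 0, against 16.2% and 18% of all probe sets. The other JUND probe sets 203751_x_at and 214326_x_at also had all untreated L1236 arrays above all untreated L428 arrays, with differences of 0.95 and 0.73 and adjusted p-values of 0.0713 and 0.0522. Either was called without some single arrays, the first without untreated L428 replicate 3 (0.0498) or treated L1236 replicate 3 (0.0411), the other without treated L428 replicate 1 (0.0445) or treated L1236 replicate 2 or 3 (0.0432 and 0.0108). FOS differed by 1.20 ± 1.10 (adjusted p = 0.602). With the array number shared by both lines as a block, FOS differed by 1.20 ± 0.20 (limma adjusted p = 0.00432). That block, chosen after seeing the data, called 3 of the 22 higher and 0 lower, against 11.9% and 10.5% of all. Without the arrays numbered 1, FOS was higher by 0.97 (0.0391), while BATF was at -0.52 (0.0317).

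Genes around AP-1 were read from 4 lists, with the highest-mean probe set of each gene. Of 14 measured bZIP proteins outside the 10 members, 2 rose in L1236 and 0 fell, against 4.58% and 4.44% of all probe sets, with a median difference of 0.73, against -0.03 over all. The small MAF proteins MAFF and MAFG, which lack a transactivation domain, averaged 11.71 ± 1.48 and 9.97 ± 0.64 in treated L1236, against 7.45 ± 0.69 and 8.25 ± 0.40 in untreated L1236 (SD, n = 3). They rose by 4.25 ± 0.92 (limma adjusted p = 0.0235) and 1.71 ± 0.35 (0.0176). Both calls were lost without untreated L1236 replicate 2 or 3 or treated L1236 replicate 2 or 3 (0.0666 to 0.0964), and 4 genes were called without treated L428 replicate 1. In L428, limma called 0 of the 14, with 6 at an unadjusted p under 0.05 and 4 called without treated L428 replicate 1, and their median was 0.39, against -0.02. In the fit without the arrays numbered 1, 9 rose and 1 fell in L1236, against 10.7% and 12.5% of all probe sets, and 10 rose and 1 fell in L428, against 8.46% and 9.77%. The mean response of both lines was called higher for 4 of the 14 and lower for 1, against 5.85% and 6.31% of all. With the array number as a block, 1 was higher and 0 lower, against 4.52% and 5.11%.

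Of 15 measured kinases and regulators upstream of AP-1, 1 fell in each line and 0 rose. Of all probe sets, 4.44% fell in L1236 and 1.2% in L428. The medians of the list were -0.12 in L1236 and -0.14 in L428. MAP3K5, the stress kinase ASK1, fell by 0.89 ± 0.19 on the log2 scale in L1236 (adjusted p = 0.0209). That call was lost without untreated L1236 replicate 1 or 3 or treated L1236 replicate 2 or 3 (0.0625 to 0.0838). In L1236, 4 genes were called without treated L1236 replicate 1, 3 without treated L428 replicate 1 and 2 without untreated L428 replicate 1. MAP2K4, which phosphorylates the JUN kinases, fell by 0.47 ± 0.07 in L428 (0.00751), or with an adjusted p of 0.0600 with the array number as a block, 0.0694 with an intensity trend and 0.110 with only the L428 arrays, and 5 genes were called without treated L428 replicate 1. With the arrays numbered 1 left out, 2 rose and 6 fell in L1236, against 10.7% and 12.5% of all probe sets, and 2 rose and 7 fell in L428, against 8.46% and 9.77%. The mean response of both lines was called lower for 5 of the 15 and higher for 0, against 6.31% and 5.85% of all. These were MAPK9, MAP2K2, MAP2K4, MAP3K5 and ELK4. With the array number as a block, 4 were lower and 0 higher, against 5.11% and 4.52%.

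Of 8 partners of BATF and AP-1 on composite sites, 2 rose in L1236 and 0 fell, against 4.58% and 4.44% of all probe sets, with list medians of 0.32 in L1236 and 0.11 in L428. NFATC1, a calcium-regulated factor that binds DNA with AP-1, rose by 1.54 ± 0.14 (adjusted p = 0.000305), and IRF8 by 1.64 ± 0.33 (0.0179). The NFATC1 call held in every alternative, and that of IRF8 was lost without untreated L1236 replicate 1 or 3 or treated L1236 replicate 2 or 3 (0.0521 to 0.0761). The count was 1 in those settings and 3 without untreated L428 replicate 1. In L428, limma called 0 of the 8, with 3 at an unadjusted p under 0.05 and 2 called without treated L428 replicate 1. With the number as a block, 2 were higher there and 0 lower, against 1.25% and 0.956% of all probe sets. Among the arrays not numbered 1, 4 rose and 1 fell in L1236, against 10.7% and 12.5% of all probe sets, and 1 rose and 2 fell in L428, against 8.46% and 9.77%. The mean response of both lines was called higher for 2 of the 8 and lower for 0, against 5.85% and 6.31% of all. With the block these were also 2 and 0, against 4.52% and 5.11%.

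Of 23 measured AP-1 target genes, 7 rose and 1 fell in L1236, against 4.58% and 4.44% of all probe sets, and 3 rose and 0 fell in L428, against 1.82% and 1.2%, with medians of 0.84 and 0.72, against -0.03 and -0.02 over all probe sets. IL13, a growth factor of Hodgkin cells, rose by 6.53 ± 0.82 in L1236 (adjusted p = 0.00183), PLAU, the urokinase gene, by 4.0 ± 0.42 (0.000769) and LGALS1, which encodes galectin-1, by 0.84 ± 0.10 (0.00154). SPP1, which encodes osteopontin, fell by 2.03 ± 0.43 (0.0222), a call lost without any untreated L1236 array or treated L1236 replicate 3 (0.0549 to 0.0686). In L428 the urokinase receptor gene PLAUR rose by 3.63 ± 0.71 (0.0322), the haem oxygenase gene HMOX1 by 1.78 ± 0.37 (0.0416) and CD274, the checkpoint ligand PD-L1, by 2.64 ± 0.58 (0.0498). In L1236 PLAUR was also called, at 2.85 (limma adjusted p = 0.0408), while HMOX1 was at 1.24 (0.0775) and CD274 at 2.14 (0.0561). The difference between the 2 responses was called for none of these 3 (limma adjusted p-values of 0.842 to 0.936).

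With the number as a block, the L428 calls of PLAUR, HMOX1 and CD274 had adjusted p-values of 0.0769, 0.0658 and 0.0986. The same fit called 2 other targets higher in L428, the cyclin D1 gene CCND1 at 2.06 (0.0417) and TIMP1, an inhibitor of matrix proteases, at 2.02 (0.0363), which are named because the block called them. These were 2 of the 23 higher and 0 lower, against 1.25% and 0.956% of all probe sets. PLAUR and HMOX1 were also lost without any 1 array other than treated replicate 1 of either line, and CD274 without any 1 array other than treated L428 replicate 1 (0.0507 to 0.193). The number of targets called in L1236 was 11 without treated L1236 replicate 1, 5 without untreated replicate 1 or treated replicate 2, and 3 without untreated L1236 replicate 2 or 3 or treated replicate 3, and in L428 it was 7 without treated L428 replicate 1 and 0 without any other array but treated L1236 replicate 1. In L428 it was 5 with 1 probe set per gene in the fit, 6 without the dimmer probe sets and 0 with only the L428 arrays. With the array medians subtracted, 10 targets rose and 3 fell in L1236. In the 8 arrays not numbered 1, 13 targets rose and 1 fell in L1236, against 10.7% and 12.5% of all probe sets, and 11 rose and 0 fell in L428, against 8.46% and 9.77%. The mean response of both lines was called higher for 10 of the 23 targets and lower for 0, against 5.85% and 6.31% of all. With the block, 11 were higher and 0 lower, against 4.52% and 5.11%.

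**Figure D4:**
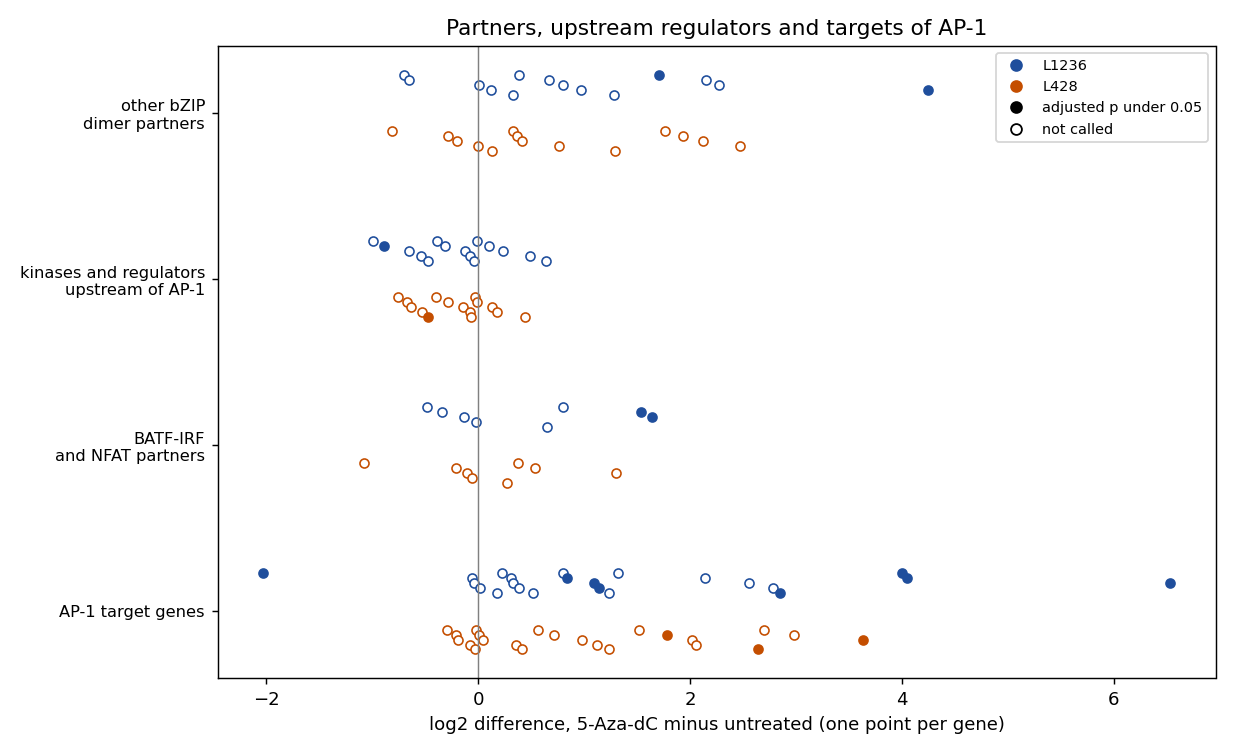
Log2 difference, 5-Aza-dC minus untreated, for genes of 4 lists in L1236 (blue) and L428 (orange), 1 point per gene, filled where the adjusted p was under 0.05. AP-1 target genes reach 6.53 in L1236 (IL13) and 3.63 in L428 (PLAUR). The upstream kinases and regulators lie between -0.99 and 0.64 in L1236 and between -0.76 and 0.44 in L428.

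The 4 members whose group means ranged most were FOS, FOSL2, FOSB and FOSL1, with ranges of 5.86, 3.22, 3.0 and 2.57. Among 19765 other genes, the profile closest to that of FOS over the 12 arrays was that of the histone gene H2BC21, with a root mean square difference of 0.81 between profiles centred on their own means. RHOB, a small GTPase gene, followed at 0.94 and MAFF at 0.97, against a median of 2.53 over all genes. Closest to FOSL2 were PAPSS2 at 0.17, the chemokine gene CCL19 at 0.25 and EYA2 at 0.30, all at the lower end of the scale outside treated L1236. Closest to FOSB were CFAP300, MFAP2 and COL1A1, at 0.48 each, and closest to FOSL1 were HEY1 at 0.35 and CDC42EP4 and ADCY7 at 0.40 each. Groups and array numbers shape all these profiles, and the values are a description of these 12 arrays.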

How the data were processed

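The authors deposited a table of log2 signals, 1 value per probe set and array, which RMA produced according to the submitters' processing notes. The log2 scale was read from the values, and whether all 12 arrays were normalized together is not given in the sources used here. The identifiers in the table belong to a 3′ expression array and were used as given, although the design text speaks of whole-transcript arrays. No detection calls were used, so low signals were not told apart from absent transcripts. The number of arrays, 3 per group, limits the precision.

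A linear model of 4 group means was fitted to all 54613 non-control probe sets with limma 3.58.1 in R 4.3.3, with empirical Bayes moderation, two-sided tests and Benjamini-Hochberg adjustment. The step was tested on simulated data. Genes took the probe set with the highest mean. All probe sets of the members are described. From each list, the text names up to 3 called genes with the smallest adjusted p per line and direction. For the 4 members with the widest group means, it names the 3 nearest profiles. Of the listed genes, 2 bZIP proteins, 3 upstream kinases and regulators and 1 target had no probe set of their own. Members and lists were chosen with earlier results of these data known. Same-numbered arrays counted as paired where every correlation of their deviations exceeded 0.1, which held in L428 and not in L1236 (0.0688, 0.0118 and 0.103). Sequences are from RefSeq (GRCh38.p14).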

Additional observations from a re-analysis of the deposited data

Results flagged for a closer look

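For 3 genes of the AP-1 lists the response itself differed between the lines by limma's test of the difference. It was 1.01 higher in L1236 than in L428 for NFATC1 (adjusted p = 0.0350), 0.83 higher for LGALS1 (0.0216) and -3.02 for SPP1 (0.0412), which fell in L1236. With the array number as a block, the difference was called for NFATC1 (0.0279) and not for LGALS1 (0.0594) or SPP1 (0.150). Without the block, the difference was called higher for 1 of 8 partners, and higher for 1 and lower for 1 of 23 targets. It was called for 0 of 14 other bZIP proteins and 0 of 15 upstream genes. Of all probe sets, 1.42% were called higher and 1.15% lower. None of the 22 AP-1 probe sets met the test of the difference over all 12 arrays.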

How the results depend on the processing

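Of the 22 AP-1 probe sets, the number called in L1236 was 9, and it was 1 with only the arrays of that line, 16 with array weights (whose estimate stopped before its tolerance), 2 with the replicate number as a block (against 6.64% of all probe sets) and 14 without the 4 arrays numbered 1. In L428 it was 0, and 1 with the block (FOS) and 7 without those arrays. For the difference of responses it was 0, and 1 without the probe sets below the median level, 1 with array weights and 11 without the arrays numbered 1. For the mean response it was 7, and 12 with array weights, 3 with the block (against 9.63%) and 14 without the arrays numbered 1. Between the untreated lines it was 2, and 4 without the dimmer probe sets and 4 without the arrays numbered 1. With single arrays left out the numbers ran from 2 to 13 in L1236, 0 to 1 in L428, 0 to 8 for the difference, 4 to 13 for the mean and 2 to 4 for the untreated lines. In all other alternatives they stayed within 1.5 times. The cause of these changes was not tested, except that fewer arrays leave fewer degrees of freedom. The block between untreated lines used a number shared by both lines and was chosen after seeing the data, as were the block and the left-out arrays for the gene lists. In L1236, where the numbers did not meet the rule used here for pairing, the block left FOS (limma adjusted p = 0.000847) and FOSB (0.0182). The labels do not say whether same-numbered arrays are paired. No called difference changed sign. Shares of all probe sets were computed for the main fit, the block and the fit without the arrays numbered 1. They were not computed for array weights, single arrays left out or the other alternatives, so those counts have no background beside them.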

Other observations

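The nearest measured protein-coding genes on either side of the members on the RefSeq map were read after the members' values were seen. Each was read by its highest-mean probe set, while the shares given beside the counts are over all probe sets. Of 18 such genes, 3 rose and 1 fell in L1236, against 4.58% and 4.44% of all probe sets, and 1 rose in L428, against 1.82%. Without the arrays numbered 1, 6 rose and 5 fell in L1236, against 10.7% and 12.5%. PRDX2, which encodes a peroxiredoxin and lies next to JUNB on chromosome 19, averaged 10.97 in treated and 2.90 in untreated L1236. It rose by 8.07 ± 0.11 there (limma adjusted p = 1.82e-09) and by 5.15 in L428 (4.42e-07). HOOK2, on the other side of JUNB, differed by 0.18 in L1236 (0.312). RTN2, a reticulon gene next to FOSB, averaged 7.28 in treated and 3.83 in untreated L1236 and rose by 3.45 ± 0.56 (0.00663), with a difference of -0.59 in L428 (0.582), while ERCC1, a DNA repair gene on the other side, differed by -0.20 (0.465). FGGY, next to JUN, rose by 0.91 (0.0382) and CCDC85B, next to FOSL1, fell by 1.00 (0.0441). ATF3 and BATF3 are separated on chromosome 1 by 1 measured gene, GARIN4, which differed by 0.03 in L1236 (0.888). FOS and BATF are likewise separated on chromosome 14 by JDP2, which encodes another bZIP protein and differed by 0.97 in L1236 (0.294).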
